A study of Homo sapiens with 6 samples.

Results

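The UGT2B genes encode UDP-glucuronosyltransferases, enzymes of the endoplasmic reticulum that attach glucuronic acid from UDP-glucuronic acid to small lipophilic molecules. Of the 7 genes considered, UGT2B4, UGT2B7, UGT2B10, UGT2B11, UGT2B15, UGT2B17 and UGT2B28, 4 had a probe set of their own in the array's annotation, and these 4, of 19775 genes with such a probe set, were covered by 6 of the 54675 probe sets. UGT2B15 had 3 probe sets, and UGT2B17, UGT2B28 and UGT2B4 had 1 each. No probe set was annotated to 2 or more of the 7 genes (0 of 54675), and UGT2B7, UGT2B10 and UGT2B11 were not analysed here. Total RNA came from VCaP, a prostate cancer cell line with the TMPRSS2/ERG gene fusion and a high basal level of the transcription factor SOX9. Cells grown in DMEM with fetal bovine serum were transfected with SOX9 siRNA A, SOX9 siRNA B or a control siRNA and harvested after 72 h. Each group held 2 Affymetrix Human Genome U133 Plus 2.0 arrays, 6 in all, which the submitters describe as biological duplicates of 1 cell line. All groups thus shared the cell line, the fusion and a transfection, and the comparison is SOX9 knockdown against control.

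Glucuronidation makes a steroid water-soluble, ends its activity at the receptor and prepares it for export. In the prostate, UGT2B15 and UGT2B17 are the main enzymes that conjugate dihydrotestosterone and its metabolites androstanediol and androsterone, and their transcripts are known to fall when androgen activates its receptor in prostate cancer cell lines. UGT2B28 accepts several steroids, UGT2B4 is best known from the liver for bile acids and catechol estrogens, UGT2B7 conjugates many drugs and steroids, UGT2B10 acts on tertiary amines such as nicotine, and UGT2B11 is less well characterised. The genes arose by duplication and are similar in sequence, so probes for one can bind the transcript of another.

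The genes lie together on chromosome 4, within 988.8 kb of GRCh38.p14 from 68537173 to 69526014. In chromosomal order they are UGT2B17 at chr4:68537173-68576322, UGT2B15 at chr4:68646597-68670652, UGT2B10, UGT2B7, UGT2B11, UGT2B28 at chr4:69280475-69295050 and UGT2B4 at chr4:69480165-69526014, positions that come from RefSeq. Probe sets whose name ends in _x_at hold probes that match other transcripts too. This applies to the brightest and the second of the UGT2B15 sets and to the UGT2B28 set, while the sets of UGT2B17 and UGT2B4 and the dim one of UGT2B15 have the plain ending _at, so the transcripts behind the first 3 are less certain.

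The values are MAS5 signals, which measure the brightness of a probe set on a linear scale, as the authors deposited them. The 2%-trimmed mean signal of the arrays ran from 144 to 190, both in siRNA B, in replicates 1 and 2. SOX9 itself had 1108 and 673 under siRNA A, 609 and 334 under siRNA B and 1469 and 1126 under control siRNA in the probe set that stood for the gene. None of the 4 knockdown arrays reached either control array in this set, as in 11.8% of all genes. In that set its log2 fold change was -0.57 under siRNA A (limma adjusted p = 0.999) and -1.48 under siRNA B (limma adjusted p = 0.111, or 1.77e-05 with the replicate number as a block). A second SOX9 probe set had 861 and 586 under siRNA A, 570 and 293 under siRNA B and 1558 and 1270 under control. Its means were 723, 431 and 1414 in that order, a larger drop under siRNA A than in the first set. Of 11 prostate luminal and VCaP markers, 9 had a probe set of their own and all 9 were above the filter level of 22, with signals from 102 for FOLH1 to 17513 for KLK2 and summed signals of 31851 and 26212 under siRNA A, 28324 and 29520 under siRNA B and 27768 and 30199 under control. When each array was set against the mean of its group over all tested genes, arrays of the same replicate number were correlated, most closely across the siRNAs (0.63; 0.18 for either siRNA and control). Replicate 2 thus differed from replicate 1 in a like way under both siRNAs, and values without single arrays are given where they change a result.

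All 4 measured UGT2B genes rose under siRNA B, about 4-fold to 7-fold in mean signal, while under siRNA A their differences from control were positive but smaller and did not pass the test. UGT2B15, UGT2B17, UGT2B28 and UGT2B4 were 4 of the 11 genes called higher under siRNA B (limma, Benjamini-Hochberg adjusted p below 0.05). Those 11 were 0.0886% of the 12421 genes tested, and 0.185% were called in either direction. By p they ranked 9, 5, 1 and 2 among the 12421 genes, and by log2 fold change 10, 2, 6 and 8. In bulk RNA, more cells that express a gene and more RNA per cell cannot be told apart.

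**Figure D1:**
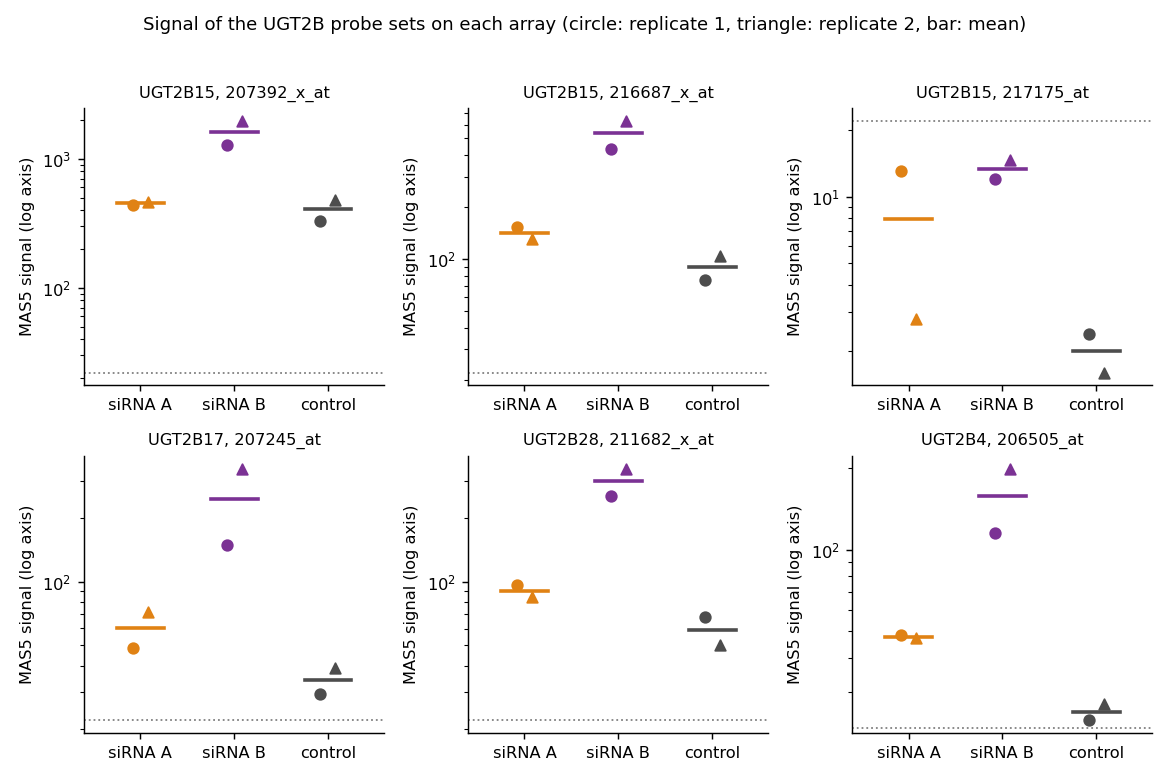
MAS5 signal (log axis, a different range in each panel) of the 6 UGT2B probe sets on the 6 arrays, showing siRNA A, siRNA B and control from left to right, replicate 1 as a circle, replicate 2 as a triangle and a bar at the mean of 2 arrays; the dotted line is the filter level of 22. Both siRNA B arrays lie above all other arrays in the panels of the 5 probe sets above the filter level; in the panel of the dim UGT2B15 set all signals are below it.

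UGT2B15, which conjugates dihydrotestosterone and androstanediol, was measured by 3 probe sets. The brightest had signals of 442 and 464 under siRNA A, 1289 and 1968 under siRNA B and 329 and 481 under control siRNA. Both siRNA B arrays were at least 2.68 times the higher control array (13.1% of all genes had both above both controls), whereas the siRNA A arrays lay between the control arrays. Mean signals were 453 ± 15.6 under siRNA A, 1628 ± 480.0 under siRNA B and 405 ± 107 under control (SD, n = 2 each), so the mean under siRNA B was 4.02 times that of control and the mean under siRNA A 1.12 times. On the log2 scale of signal + 16 the fold change was 1.96 under siRNA B (SE 0.31, 95% interval 1.31 to 2.61, limma adjusted p = 0.0124) and 0.18 under siRNA A (95% interval -0.47 to 0.83, limma adjusted p = 0.999).

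In the second UGT2B15 probe set siRNA B again lay above the other groups. Its signals were 153 and 130.4 under siRNA A, 437 and 631 under siRNA B and 75.5 and 104 under control. In this set the siRNA A arrays also lay above both control arrays, as in 14.4% of all tested probe sets. In a fit over 27280 probe sets it had a log2 change of 2.37 under siRNA B (95% interval 1.75 to 3.0, limma adjusted p = 0.0249), the smallest p of all probe sets in that comparison, in which 0.0293% were called higher, and 0.59 under siRNA A (95% interval -0.04 to 1.21, limma adjusted p = 1). The dim one had signals of 13.1 and 2.8 under siRNA A, 12 and 14.6 under siRNA B and 2.4 and 1.6 under control, all below the filter level of 22, and was not tested.

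The 250 bases upstream of the UGT2B15 start in RefSeq (GRCh38.p14, minus strand, chr4:68670653-68670902) are shown because it is the 1 gene of the 4 measured for which a promoter sequence was at hand. Capitals mark the nuclear receptor half-site AGGTCA.
UGT2B15: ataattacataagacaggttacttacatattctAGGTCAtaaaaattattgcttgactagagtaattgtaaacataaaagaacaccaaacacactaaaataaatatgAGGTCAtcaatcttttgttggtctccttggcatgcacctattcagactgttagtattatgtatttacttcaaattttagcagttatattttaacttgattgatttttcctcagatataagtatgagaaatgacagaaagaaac
AGGTCA was found 2 times, at -217 to -212 and at -143 to -138 from the start, where 12.1% of 35116 upstream windows of the same length hold it at least once on either strand and 1.02% hold 2 or more. AGAACA, the half-site of the androgen and glucocorticoid receptors, was found once, at -172 to -167 (12.4% of windows hold it), and TGTTTAC, a core of FOXA sites, once on the opposite strand at -183 to -177 (2.98% of windows). The SOX core AACAAT (8.98% of windows), ACAAAG, a core shared by SOX and TCF factors (13.7%), and the HNF1 half-site GTTAAT (6.23%) are not in this window. No other form of SOX site was searched, so the window may hold such sequences. ACAAAG was found in the windows of UGT2B10 and UGT2B11. The upstream windows of UGT2B11, UGT2B10 and UGT2B7 were 71.4%, 70.6% and 61.3% identical to that of UGT2B15 in global alignments. A match of letters is a description and not a bound site.

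UGT2B17, which conjugates dihydrotestosterone, testosterone and androsterone, was measured by 1 probe set. Its signals were 48.6 and 71.9 under siRNA A, 149 and 343 under siRNA B and 29.3 and 38.8 under control siRNA. The 3 groups did not overlap, and both siRNA B arrays were at least 3.84 times the higher control array. Of all genes, 13.1% had both siRNA B arrays above both controls and 14.4% had both siRNA A arrays above them. Both siRNA A arrays lay below both siRNA B arrays in 15.2%. The share with all 3 groups apart in this order was not counted. Mean signals were 60.25 ± 16.5 under siRNA A, 246 ± 137 under siRNA B and 34.05 ± 6.72 under control (SD, n = 2 each), 1.77 and 7.22 times control. The log2 fold change was 2.29 under siRNA B (SE 0.34, 95% interval 1.56 to 3.02, limma adjusted p = 0.0117) and 0.60 under siRNA A (95% interval -0.13 to 1.33, limma adjusted p = 0.999).

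UGT2B28, which accepts several steroids, had signals of 96.4 and 84.8 under siRNA A, 256 and 345 under siRNA B and 68.1 and 50 under control siRNA. Again the 3 groups did not overlap, siRNA B being highest and control lowest. Of all genes, 13.1% had siRNA B above control, 14.4% siRNA A above control and 15.2% siRNA A below siRNA B without overlap. Mean signals were 90.6 ± 8.20 under siRNA A, 300.5 ± 62.5 under siRNA B and 59.05 ± 12.8 under control (SD, n = 2 each), 1.53 and 5.09 times control. The log2 fold change was 2.07 under siRNA B (SE 0.28, 95% interval 1.48 to 2.66, limma adjusted p = 0.0117), the smallest p of all genes in that comparison, and 0.51 under siRNA A (95% interval -0.07 to 1.10, limma adjusted p = 0.999).

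UGT2B4, the bile acid conjugating enzyme, followed the same order although its control signal was close to the filter level. Signals were 48.4 and 47.1 under siRNA A, 115 and 199 under siRNA B and 23.5 and 27 under control siRNA, again without overlap between the groups. The same separations, each taken alone, were seen in 13.1% (siRNA B above control), 14.4% (siRNA A above control) and 15.2% (siRNA A below siRNA B) of all genes. Mean signals were 47.75 ± 0.919 under siRNA A, 157 ± 59.0 under siRNA B and 25.25 ± 2.47 under control (SD, n = 2 each), 1.89 and 6.22 times control. The log2 fold change was 2.03 under siRNA B (SE 0.30, 95% interval 1.39 to 2.66, limma adjusted p = 0.0117) and 0.63 under siRNA A (95% interval -0.01 to 1.27, limma adjusted p = 0.999). With an offset of 1 in place of 16, which shrinks dim signals less, the UGT2B4 fold change under siRNA B was 2.54. The 5 probe sets tested were at or above 23.5 on all 6 arrays, so none passed the filter through the siRNA B arrays alone.

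**Figure D2:**
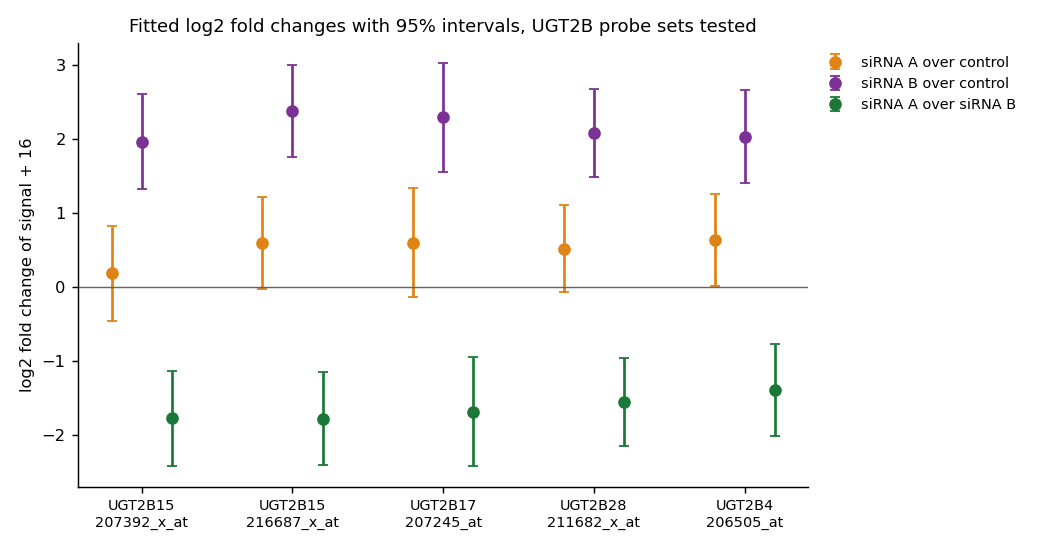
Fitted log2 fold change of signal + 16 for the 5 UGT2B probe sets tested, with 95% intervals from limma over 6 arrays, for siRNA A over control, siRNA B over control and siRNA A over siRNA B. The siRNA B points lie between 1.96 and 2.37 with intervals above 0, and the siRNA A points between 0.18 and 0.63, with lower bounds below 0 except that of UGT2B4, which is at 0.0036.

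With siRNA A, 0 of 4 UGT2B genes were called in limma, where 0.0161% of all genes were. An unadjusted limma p below 0.05 was reached by 0 of 4, and by 587 of the 12421 genes tested. The smallest unadjusted p of the 4 was 0.0523, for UGT2B4. All 4 fold changes were positive, from 0.18 to 0.63 with a median of 0.56, against a median of -0.05 over all genes tested, but UGT2B15 was at -0.082 without control replicate 1. In UGT2B17, UGT2B28 and UGT2B4 both siRNA A arrays lay above both control arrays, as they did in 14.4% of all genes. A rise of the size seen under siRNA B lies outside the siRNA A intervals of all 4 genes, whose upper bounds ran from 0.83 to 1.33.

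The difference between the siRNAs was tested directly. The log2 difference, siRNA A minus siRNA B, was -1.78 for UGT2B15 (95% interval -2.43 to -1.13, limma adjusted p = 0.0392) and -1.56 for UGT2B28 (95% interval -2.15 to -0.97, limma adjusted p = 0.0466), so both genes were lower under siRNA A. For UGT2B17 it was -1.69 (95% interval -2.42 to -0.96, limma adjusted p = 0.0801) and for UGT2B4 -1.40 (95% interval -2.03 to -0.76, limma adjusted p = 0.107), which did not pass. Of all genes, 0.0966% were called in that comparison and 0.0483% were called lower under siRNA A. Of the 5 probe sets tested, 1 was called, the second of UGT2B15 (0.0183% of all probe sets were called lower). In all 4 genes both siRNA A arrays lay below both siRNA B arrays, as in 15.2% of all genes. With the replicate number as a block all 4 differences passed, with a limma adjusted p of at most 0.000284, where 2.91% of all genes were called. By contrast, 0 of 4 passed in limma under any of the 3 scalings of arrays to each other or without the filter, where 0 of all genes were called. With an offset of 1 (8 of 12411 genes called) or without the eBayes trend (6 of 12421) it was also 0 of 4. In these 6 fits 4 of 4 had an unadjusted limma p below 0.05, as did 997 to 1516 of all genes. The calls also did not hold without either siRNA A array or without siRNA B replicate 2, fits that leave 1 array in a group. The mean signal under siRNA A was 0.278 times that under siRNA B for the brightest UGT2B15 set, 0.245 for UGT2B17, 0.301 for UGT2B28 and 0.304 for UGT2B4. The SOX9 signal differed in the opposite direction, with a mean of 890 ± 308 for siRNA A against 471 ± 195 for siRNA B (SD, n = 2 each), and that difference did not pass (log2 0.91, limma adjusted p = 0.429; 0.0413 with the block).

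**Figure D3:**
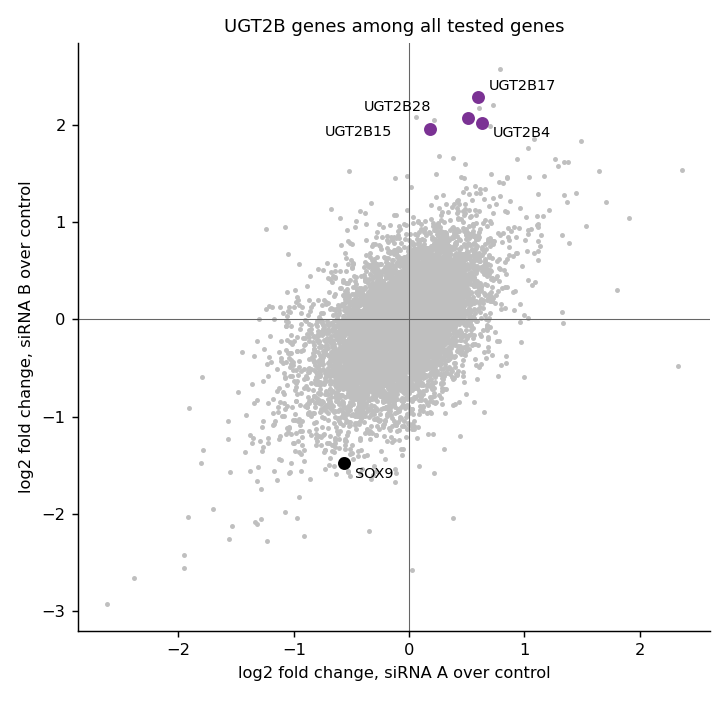
Log2 fold change of the 12421 tested genes for siRNA A over control (x axis) and siRNA B over control (y axis), with the 4 UGT2B genes in purple and SOX9 in black. Both axes share the control arrays; the UGT2B genes lie near 2 on the y axis and between 0.18 and 0.63 on the x axis.

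For the mean of both siRNAs against control, the 4 genes had log2 fold changes of 1.07 (UGT2B15), 1.44 (UGT2B17), 1.29 (UGT2B28) and 1.33 (UGT2B4). None of the 4 passed in limma, with adjusted p from 0.0786 for UGT2B28 to 0.311 for UGT2B15, and 0.0403% of all genes were called. An unadjusted limma p below 0.05 was reached by 4 of 4, and by 964 of the 12421 genes tested. With the replicate block 4 of 4 passed, with limma adjusted p from 6.89e-07 to 0.00114, where 3.54% of all genes were called. That fit took the spread of every gene from the trend over genes alone, so its p-values can be too small. In UGT2B17, UGT2B28 and UGT2B4 all 4 SOX9 siRNA arrays lay above both control arrays, as in 4.56% of all genes. In UGT2B15 siRNA A overlapped with control.

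Within groups, the replicates differed in ways that bear on these values. With siRNA B, replicate 2 was above replicate 1 in all 4 genes, by 0.60 (UGT2B15), 1.12 (UGT2B17), 0.41 (UGT2B28) and 0.71 (UGT2B4) on the log2 scale. The SOX9 signal was lower in replicate 2 than in replicate 1 in all 3 groups. With siRNA A the same differences were 0.07, 0.44, -0.16 and -0.03, and under control 0.52, 0.27, -0.35 and 0.12. Replicate 2 of siRNA B also had the highest trimmed mean of all arrays. Without that array the siRNA B fold changes were 1.66 to 1.87 and the calls did not hold. Without replicate 1 of siRNA B the fold changes were 2.26 to 2.85. Both fits leave 1 siRNA B array, and calls over all genes moved with them too. Calls in these fits are thus not a result about the UGT2B genes alone. UGT2B15 alone also lost its call without control replicate 1 (limma adjusted p = 0.058), siRNA A replicate 1 (0.0526), siRNA A replicate 2 (0.0539) or both siRNA A arrays (0.051), where the other 3 genes kept theirs.

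Scaling the arrays to each other left the sizes as they were and ended the calls. When the arrays were quantile normalized, centred on their medians or brought to 1 trimmed mean, the 4 siRNA B fold changes were between 1.97 and 2.31 and held ranks 1 to 12 by p, yet 0 of 4 genes passed in limma (adjusted p from 0.0764 to 0.158, 4 of 4 at an unadjusted p below 0.05). Over all genes limma also called 0 under these scalings, while an unadjusted p below 0.05 was reached by 1834, 1596 and 1765 genes.

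No tested neighbour of the UGT2B cluster passed the test. Within 1 Mb on either side 24 other genes had a probe set of their own, of which 4 were tested and 0 called, with either siRNA or both. The 4 were ODAM, an odontogenic protein gene (log2 fold change -0.77 under siRNA A and -0.77 under siRNA B), YTHDC1, an RNA methylation reader (-0.14 and -0.18), CENPC, a centromere protein gene (0.18 and 0.06), and UBA6, a ubiquitin activating enzyme gene (0.17 and 0.02). With siRNA B their median was -0.08, against -0.02 over all genes. UGT2A3, which lies between UGT2B10 and UGT2B7, had signals of 8 and 16.6 under siRNA A, 8.3 and 8.5 under siRNA B and 2.9 and 13.1 under control, below the filter level. The other untested neighbours were dim as well, with no signal above 31.9 on any array, and over all 20 the siRNA B difference from control ran from -0.49 to 0.66 with a median of -0.03. ODAM passed for both siRNAs with the replicate block (log2 fold change -0.77, limma adjusted p = 0.0387), where 3.54% of all genes were called. Its signals were 311 and 145 under siRNA A, 298 and 153 under siRNA B and 402 and 352 under control. Under each siRNA the lower signal was that of replicate 2.

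**Figure D4:**
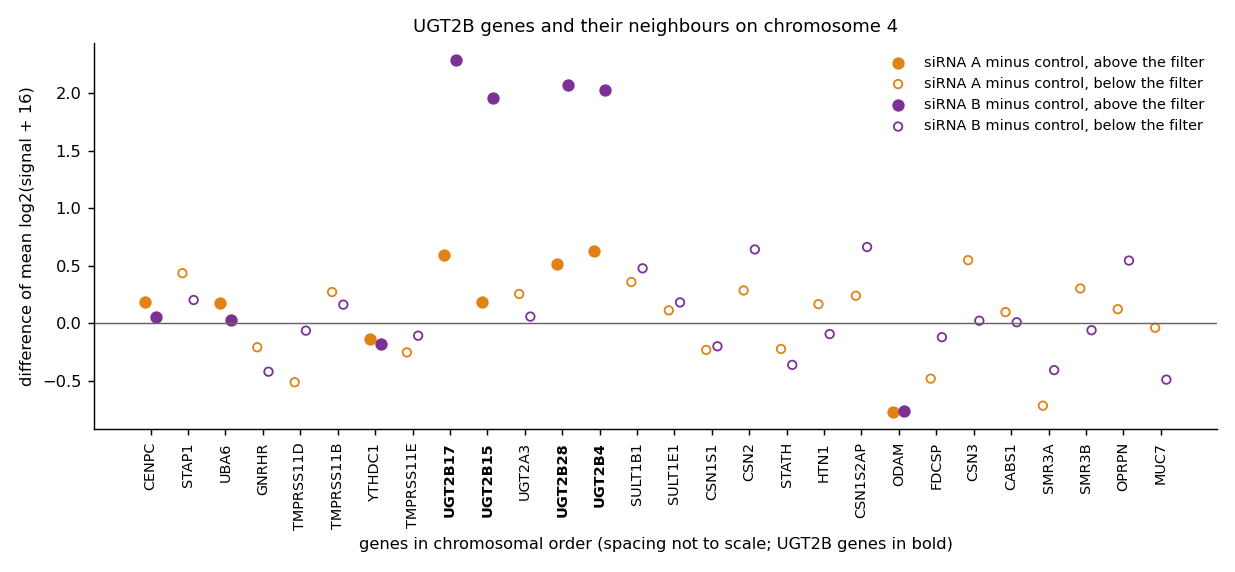
Difference of mean log2(signal + 16) from control for the 28 genes with a probe set of their own within 1 Mb of the UGT2B cluster, in chromosomal order and not to scale, for siRNA A (orange) and siRNA B (purple); open circles are genes below the filter. The 4 UGT2B genes lie near 2 under siRNA B, and no neighbour exceeds 0.66.

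Other glycosyltransferases and the steps around glucuronidation were examined for comparison. Of 15 other UDP-glycosyltransferases, 5 had a probe set of their own and 1 was tested. This was UGT8, which makes galactosylceramide, with signals of 745 and 715 under siRNA A, 952 and 1617 under siRNA B and 556 and 962 under control and a log2 change of 0.75 under siRNA B (limma adjusted p = 0.404). Of the untested ones, UGT1A1 had a highest signal of 7.9 and UGT1A6 of 16.1.

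For the supply of UDP-glucuronic acid and the cleavage of glucuronides, 15 of 15 genes were tested and 0 called in limma for either siRNA or both. Their median log2 fold change under siRNA B was 0.20, with 12 of 15 positive. SLC35D1 carries UDP-glucuronic acid into the endoplasmic reticulum. Its signals were 188 and 336 under siRNA A, 239 and 681 under siRNA B and 174 and 181 under control. All SOX9 siRNA arrays thus lay above control, as in 4.56% of all genes. The log2 fold change of SLC35D1 was 0.80 for both siRNAs (limma adjusted p = 0.609, or 0.0296 with the replicate block). HK2, hexokinase, was at -0.99 for both (limma adjusted p = 0.608, or 0.00345 with the block). Its signals were 671 and 235 under siRNA A, 581 and 157 under siRNA B and 729 and 689 under control. Most of that drop was in replicate 2 of each siRNA. ENTPD5 was at 0.36 and UGP2, which makes UDP-glucose, at 0.30. UGDH, which oxidises UDP-glucose to UDP-glucuronic acid, had 0.15 for both siRNAs (limma adjusted p = 0.943).

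Export, sulfation and the enzymes that supply UGT2B substrates showed 0 calls in limma in any of the 4 comparisons. Of 5 export genes tested, ABCC4, a transporter of steroid conjugates, had signals of 1628 and 1081 under siRNA A, 707 and 567 under siRNA B and 1489 and 1369 under control. Its log2 fold change was -1.15 under siRNA B (limma adjusted p = 0.129, or 0.00135 with the block), lower where the UGT2B genes were higher. ABCC1 (-0.42), ABCC10 (0.41) and ABCG2 (0.28) for both siRNAs did not pass. Of 5 sulfation genes tested, STS, which removes sulfate from steroids, had 84.2 and 252 under siRNA A, 63 and 287 under siRNA B and 47.9 and 62 under control. Its log2 fold change for both siRNAs was 1.17 (limma adjusted p = 0.531, or 9.35e-05 with the block). SULT2B1 was at -0.86, PAPSS2 at 0.24 and SULT1A1 at -0.19. Of 14 enzymes that make or oxidise androstanes, 10 had a negative fold change under siRNA B and the median was -0.26. RDH16 had -0.68, HSD17B4 0.55, HSD17B11 -0.45 and HSD17B8 -0.56 for both siRNAs, with limma adjusted p from 0.541 to 0.72. With the block HSD17B4 passed for siRNA B (0.86, limma adjusted p = 0.00993). Its signals were 2539 and 4756.5 under siRNA B and 1843 and 1974 under control.

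**Figure D5:**
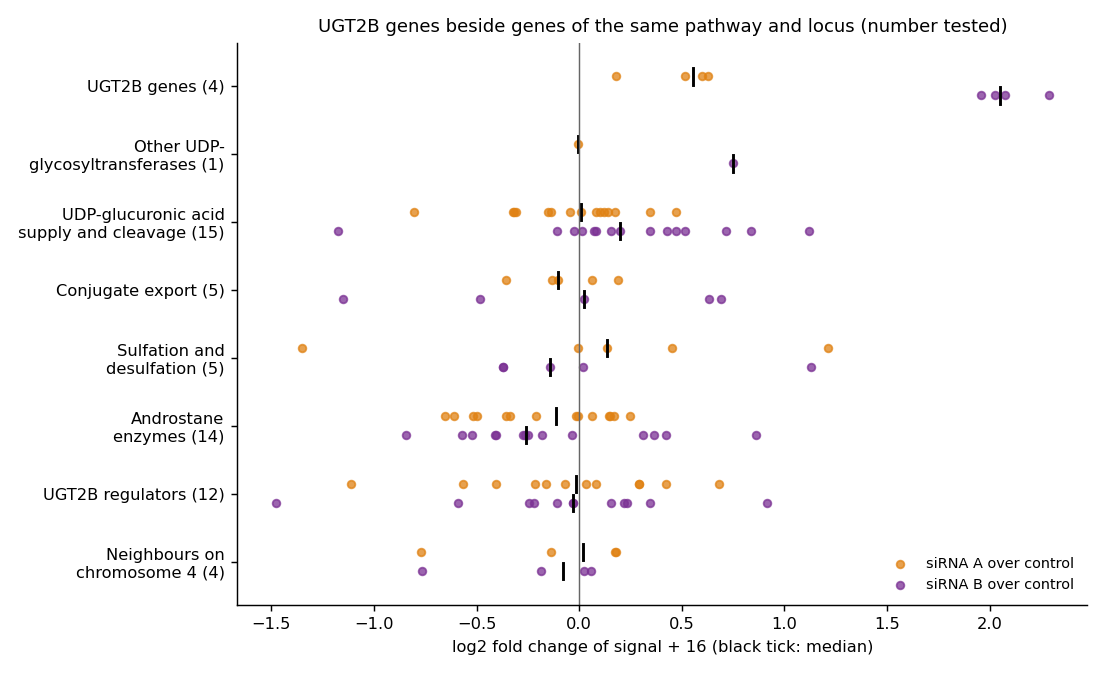
Log2 fold change over control of each tested gene in the UGT2B family and in 7 gene lists, siRNA A in orange above siRNA B in purple, the number of tested genes in brackets and a black tick at the median. The UGT2B genes under siRNA B have a median of 2.05; the list medians lie between -0.26 and 0.75, the highest being that of a single gene, UGT8.

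Transcription factors linked to UGT2B promoters, with SOX9 added, gave 12 tested genes and 0 calls in limma for either siRNA or both. Besides SOX9 the smallest p for both siRNAs was that of NR2F1, an orphan nuclear receptor, with a log2 change of 0.67 (limma adjusted p = 0.575). ESR1, the estrogen receptor, had -0.67, with signals of 4 and 14 under siRNA A, 29.9 and 28.9 under siRNA B and 27.4 and 48.5 under control, and VDR, the vitamin D receptor, had -0.38. FOXA1, a pioneer factor of prostate cells, was at 0.29 under siRNA A and -0.03 under siRNA B. KLK3, the androgen-induced gene of prostate-specific antigen, had 2064 and 825 under siRNA A, 1474 and 833 under siRNA B and 1998 and 1295 under control, with a log2 change of -0.41 for both siRNAs (limma adjusted p = 0.846). For KLK2, also induced by androgen, it was -0.01.

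Since UGT2B genes are best known from liver and gut, markers of those cells were read on the same arrays. Of 9 hepatocyte markers, 8 had a probe set of their own and 4 were above the filter. ALB, albumin, had 1349 and 3028 under siRNA A, 1810 and 3345 under siRNA B and 624.5 and 1062 under control. Each of the 4 knockdown arrays lay above each control array, as in 4.56% of all genes. The log2 fold change of ALB was 1.30 under siRNA A and 1.58 under siRNA B (limma adjusted p = 0.665 and 0.123, or 3.02e-07 for siRNA B with the block). TTR, transthyretin, had 0.42 under siRNA A and 1.05 under siRNA B (limma adjusted p = 0.999 and 0.299, or 0.00592 for siRNA B with the block). Its signals were 191.5 and 399 under siRNA A, 291 and 653 under siRNA B and 185 and 223 under control. With the block 1 hepatocyte marker was called higher under siRNA A and 2 under siRNA B. SERPINA1 and CYP3A4 were at -0.21 and 0.30 under siRNA A and -0.18 and -0.42 under siRNA B, and APOA1, APOB, FGB and HP did not exceed 28.5 on any array. Summed over the 8 markers, signals were 1702 and 3542 under siRNA A, 2215 and 4135 under siRNA B and 964 and 1420.2 under control, of which ALB made up most. All 5 enterocyte markers had a mean below the filter. Their summed signals were 46.4 and 27.3 under siRNA A, 73.7 and 101 under siRNA B and 59.2 and 48 under control. On the siRNA B arrays CDX2 (28.7 and 24.7) and LGALS4 (26.6 and 48.5) exceeded 22. Under control CDX2 had 17.7 and 11.5 and LGALS4 15.7 and 21.7. VIL1, FABP2 and ALPI did not exceed 22 on any array. Of 5 fibroblast markers COL1A1 alone had a mean above the filter. Its signals were 82.5 and 30.9 under siRNA A, 223 and 196 under siRNA B and 135 and 115 under control. The fibroblast sums were 127 and 55 under siRNA A, 264 and 255 under siRNA B and 164 and 133 under control. The 3 measured leukocyte markers had sums from 23.3 to 87.3. The part of these markers in the UGT2B values was not tested.

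Genes with the most similar pattern over the 6 arrays were found by Pearson's correlation of log2(signal + 16), given as a description. For UGT2B17 they were CLOCK (0.99), SLC25A20 (0.99) and SI (0.99). SI, sucrase-isomaltase, had signals of 425 and 849 under siRNA A, 1379 and 3218 under siRNA B and 273 and 426 under control, and a log2 change of 2.57 under siRNA B (limma adjusted p = 0.0124). For UGT2B15 they were FBXW8, PLPPR2 and ILK, for UGT2B28 BAMBI, CAPN5 and CCZ1B, and for UGT2B4 TECPR1, FUCA1 and ASPHD2, with correlations from 0.98 to 0.99. Among these 9 the fold change under siRNA B ran from 0.35 for ASPHD2 to 1.19 for BAMBI, smaller than in the UGT2B genes. The UGT2B probe sets above the filter correlated with each other at 0.94 to 0.99 over the same 6 arrays, which share 3 groups and may share transcripts bound by related probes.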

How the data were processed

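RNA of 6 arrays was measured in 3 groups of 2. Per the labels, the authors deposited MAS5 signal intensity for each probe set on a linear scale, 1 column per array, with neither version nor scaling target stated. Values were used as log2(signal + 16) with the deposited scaling kept, so that fold changes on the log2 scale understate those of dim genes. After leaving out 62 control probe sets, a gene was represented by its brightest probe set of its own, and features whose mean lay under the median over probe sets (5.25, a signal of 22) were left out, which left 12421 genes and 27280 probe sets. Tests used limma 3.58.1 in R 4.3.3 (3 groups, 6 arrays, 3 residual degrees of freedom, eBayes with trend, two-sided, Benjamini-Hochberg adjusted p below 0.05 over all features). The block p-values come from the same fit with the replicate number added. The fit without the block was also run on simulated data, for both siRNAs against control only. Those arrays were drawn independently, so the run does not cover the other comparisons or deviations shared between arrays.

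The members and gene lists were chosen with earlier results of these data known. Named were all members, SOX9, up to 4 tested genes per list by smallest p and 3 genes most correlated with each member; UGDH, FOXA1, KLK2, UGT2A3, UGT1A1, UGT1A6 and markers were added for their role. Same-numbered arrays deviated together (correlations of 0.63, 0.18 and 0.18 between groups), so the numbers may pair the arrays, a reading from the data and not from the labels; calls are those of the fit without the block, and blocked values stand beside results they change. Promoters come from RefSeq (GRCh38.p14), aligned with Biopython 1.88; those of UGT2B17, UGT2B28 and UGT2B4 were not used here. The alternatives were log offsets, scalings, filters, eBayes settings, groups fitted, the block, a threshold of 0.1 and leaving out arrays. The number of arrays limits the precision.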

Additional observations from a re-analysis of the deposited data

Results flagged for a closer look

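The effects of the siRNAs differed by the direct test in 2 genes. The log2 difference, siRNA A minus siRNA B, was -1.78 for UGT2B15 (limma adjusted p = 0.0392) and -1.56 for UGT2B28 (limma adjusted p = 0.0466). Of all genes, 0.0483% were called lower under siRNA A. Both siRNA A arrays lay below both siRNA B arrays in each of the 2 genes, as in 15.2% of all genes. Tested over all probe sets, the second UGT2B15 set also passed, at -1.78 (limma adjusted p = 0.0495). Over the alternatives the adjusted p ran from 2.48e-07 to 0.436 for UGT2B15 and from 3.62e-06 to 0.479 for UGT2B28.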

How the results depend on the processing

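With siRNA B over control, 4 of 4 UGT2B genes passed in limma, among 23 of the 12421 genes. After quantile normalization, median centring, a common 2%-trimmed mean or without the filter, 4 of 4 had an unadjusted p below 0.05 (limma). So did 1596 to 1834 of all genes. Yet 0 of 4 UGT2B genes and 0 of all genes passed under these settings. Leaving out 1 array gave 0 to 4, the 0 without replicate 2 of siRNA B, and fitting siRNA B and control alone gave 3, without UGT2B15. For probe sets the count of 5 was 0 under those 4 settings and without the eBayes trend, and 0 to 5 with 1 array left out, 0 without replicate 2 of siRNA B or control replicate 1. For siRNA A over siRNA B the 2 genes became 0 under the same 3 scalings, without the filter, with an offset of 1 and without the trend. They became 1 with the median over probe sets of a gene, 4 with those 4 arrays fitted alone, 4 with the replicate block (with or without median centring), and 0 to 4 with 1 array left out: 0 without any siRNA A array or replicate 2 of siRNA B, 4 without replicate 1 of siRNA B or either control array. The 1 probe set became 0 under these 3 scalings, without the filter, with an offset of 1 and without the trend, 2 with the stricter filter, 3 with an offset of 64, robust eBayes or a threshold of 0.1, 4 with those arrays alone, 5 with the replicate block (with or without centring), and 0 to 5 with 1 array left out. For both siRNAs the 0 genes became 2 at a threshold of 0.1, 1 with the median over probe sets, 4 with the replicate block (with or without centring) and 0 to 4 with arrays left out, 4 without replicate 1 of siRNA B, 1 without control replicate 2 and 2 without replicate 1 of both siRNAs. The 0 probe sets became 5 with the replicate block (with or without centring) and 0 to 5 with arrays left out. With siRNA A, 0 UGT2B genes were called in all 20 alternatives, the block included (limma), while 0 to 3 of 4 had an unadjusted p below 0.05, the 3 with the replicate block and median centring. A lone array left in a group was assumed to vary like the others, so counts of calls from those fits are uncertain. Calls over all genes moved with the settings too. For siRNA A over siRNA B they numbered 12 in the main fit and 0 under the 3 scalings or without the filter. They numbered 57 with those 4 arrays alone, 361 with the block and 578 with the block and centring. For both siRNAs they rose from 5 to 440 with the block, or 530 with centring as well. The causes were not tested.

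In the siRNA B comparison the log2 fold changes stayed positive in all 20 alternatives for each gene, from 1.28 (UGT2B4) to 2.85 (UGT2B17). With siRNA A, UGT2B15 ran from -0.082 without control replicate 1 to 0.44 without control replicate 2 with 1 array left out, and UGT2B17, UGT2B28 and UGT2B4 stayed positive in 20 of 20. Fitting the compared groups alone gives no separate value for both siRNAs. Brightness limits UGT2B4 and UGT2B17 most, whose control signals were near the filter level.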
